A study of Homo sapiens with 6 samples.

Results

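Sterol and fatty acid synthesis was examined in MCF10A cells through 31 genes, chosen by name, that encode or serve the sterol regulatory element-binding proteins (SREBPs) or are known to be driven by them. They comprised 17 genes of the sterol arm, 3 genes of the SREBP core and 11 genes of the fatty acid arm. All 31 were listed among the 19198 genes of the deposited table, and all 31 passed the filter on low values, as 16988 genes did in all. MCF10A is an established, non-tumorigenic human breast epithelial cell line, so the samples describe 1 line and not breast tissue. RNA-Seq compared 3 control samples, kept in medium with 10 μg/ml insulin, 20 ng/ml epidermal growth factor (EGF), 100 ng/ml cholera toxin and 0.5 μg/ml hydrocortisone, with 3 growth factor-depleted samples from which these 4 agents had been left out. Both media contained 5% horse serum, a source of lipids and of other growth factors, so the depleted cells were not serum-starved. The comparison addressed how the RNA content of these epithelial cells differs when the agents are removed, a treatment the study used to induce an epithelial to mesenchymal transition. The agents were removed together, so an effect of insulin cannot be told apart from that of EGF, cholera toxin or hydrocortisone.

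SREBPs are made as precursors that sit in the membrane of the endoplasmic reticulum, bound to the escort protein SCAP. When sterols are plentiful, INSIG proteins hold SCAP in place. When sterols are scarce, SCAP carries SREBP to the Golgi, where proteases release the part that enters the nucleus and turns on genes of cholesterol and fatty acid synthesis. The product of SREBF2 acts mainly on sterol genes and that of SREBF1 mainly on fatty acid genes, and SREBF1 is also known to respond to insulin and to the liver X receptors (LXRs). In the mammary gland these enzymes supply membrane lipid and, in lactation, milk fat.

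The values are counts divided by a size factor for each sample (normalized counts), and they are not divided by gene length. Between 7472418 and 28672630 reads on genes were recovered per sample, and the lowest value of any of the 31 genes in any sample was 81.6 normalized counts, against a floor of 3 reads that corresponds to 1.76 to 6.71 normalized counts. A gene was called higher or lower at a Benjamini-Hochberg adjusted p under 0.05 by limma over all 16988 genes, with a change of at least 2-fold. By this rule 741 genes (4.36%) were higher and 335 (1.97%) lower without growth factors. Control replicate 3 stood apart from the other controls in the sterol genes, and leaving it out raised these counts to 1372 and 1102, so values without it are given beside the results. The labels call the cells luminal ductal, and luminal KRT8 and KRT18 were present in every sample, from 1716 to 19305 normalized counts, as was the basal keratin KRT5, from 562.0 to 38503. Depleted replicate 1 stood apart from depleted replicates 2 and 3 in some markers. It had 562.0 against 10908 and 14996.5 for KRT5, 152.9 against 2281 and 2486 for luminal EPCAM, and 3322.5 against 348.8 and 447.2 for fibroblast PDGFRB. Luminal KRT19 was alike in them, at 30.2, 25.6 and 29.1. Of 7 luminal markers 1 was called lower in the depleted samples, KRT19 (-2.31, adjusted p = 0.0196), and of 5 basal markers 1, TP63 (-4.18, adjusted p = 0.0270), and 0 of either list were called higher. Of 6 fibroblast markers 5 were called higher, and DCN was not (adjusted p = 0.0891 by limma). All 6 were higher in every depleted sample than in any control, as were 13.5% of all genes tested. By that measure 1 of 5 basal markers was also higher, KRT17 (2.44, adjusted p = 0.0877 by limma), and 1 was lower. Of 7 luminal markers 0 were higher and 2 lower. The fibroblast markers had a summed level of 206.2 to 407.3 normalized counts in the controls and of 7886 to 28374 in the depleted samples. Of the adipocyte markers, 4 of 6 were listed, with a summed level of 132.8 to 1000.0 in the controls and of 39.4 to 82.7 in the depleted samples, where CIDEC was at 0. In bulk RNA, fewer cells of a type and less RNA per cell cannot be told apart, and the part of these markers in the lipid gene results was not tested.

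Of the 31 genes, 1 was called lower and 0 were called higher without growth factors, beside 1.97% and 4.36% of all genes tested. FASN, the fatty acid synthase, was the gene called. The fold changes ran from -1.78 for SREBF1 to 1.72 for FADS2 on the log2 scale, and 23 of 31 were negative. Their median was -0.50, beside -0.03 over all genes tested. An unadjusted p under 0.05 was reached by 7 of the 31, beside 20.0% of all genes tested. In 7 of 31 genes all depleted samples lay below all controls, which held for 12.1% of all genes tested, and in 0 of 31 was every depleted sample above, which held for 13.5%. The samples lay differently in the arms. In 11 of 17 sterol genes the depleted samples lay between control samples, and in 5 of 11 fatty acid genes they were below all controls.

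**Figure D1:**
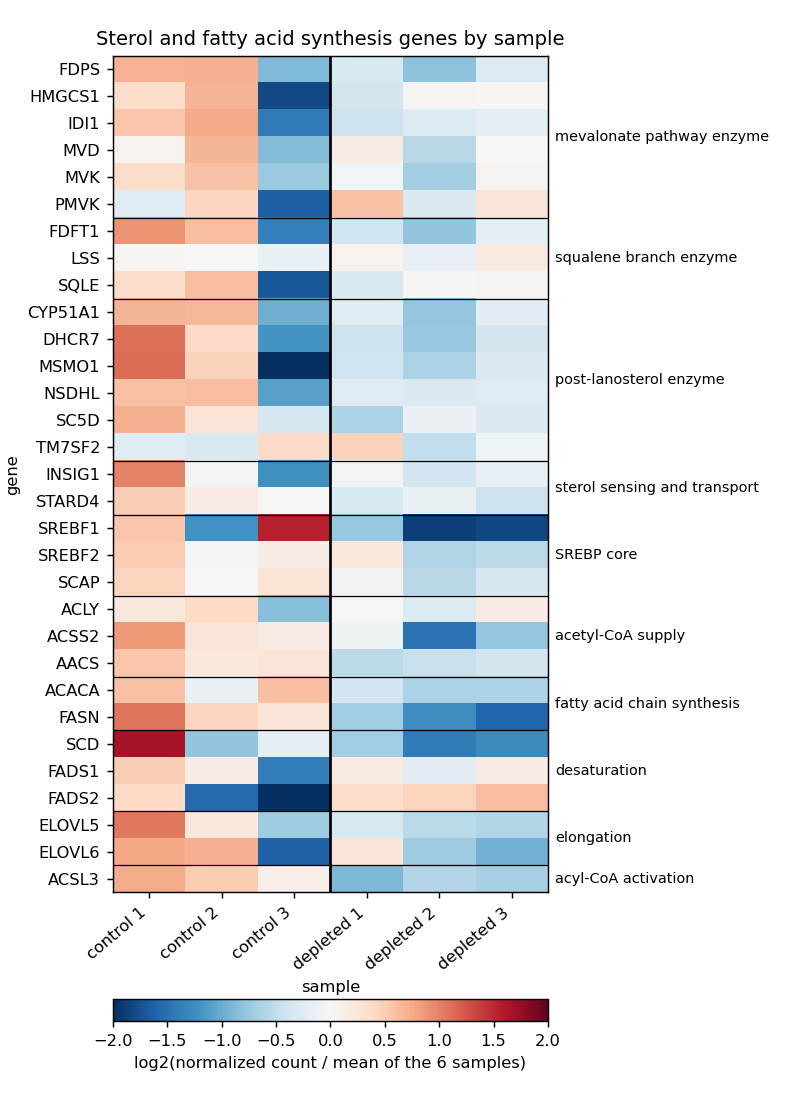
Each row is a gene, grouped by role, and each column a sample. Colour gives log2 of the normalized count over the gene's mean in the 6 samples, and colours saturate at -2 and 2. Control replicate 3 is the bluest column for most sterol genes, with MSMO1 at 682.7 normalized counts against 6117 and 3895 in control replicates 1 and 2, while FASN, AACS and ACSL3 are redder in all 3 controls than in the depleted samples.

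No gene of the sterol arm passed the test, and 0 of 17 reached an unadjusted p under 0.05 by limma. The count tests, edgeR and DESeq2, also called 0 of 17, beside 971 and 2112 of all 16988 genes tested. The log2 fold changes ran from -0.64 to 0.67 with a median of -0.27, and 12 of 17 were negative. Standard errors were 0.25 to 0.71, so that in MSMO1, the most variable, a 2-fold change would be under 2 standard errors. The controls were divided among themselves. As a median over the 17 genes, control replicates 1 and 2 stood at 147% and 151% of the mean of the 6 samples and control replicate 3 at 47.0%, with the depleted samples between them at 80.9%, 76.3% and 88.5%. All genes tested had medians of 90.7% to 95.3% in the same samples. Control replicate 3 was the lowest of the 6 samples in 13 of 17 sterol genes, as it was in 26.4% of all genes tested. In 11 of 17, control replicates 1 and 2 both exceeded all depleted samples and control replicate 3 was below all of them, a pattern found in 8.55% of all genes.

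The mevalonate pathway builds isoprenoid units from acetyl-CoA. HMGCS1, which makes HMG-CoA, the substrate of the pathway's committed step, had 2092, 2585 and 466.3 normalized counts in the controls and 1257, 1688 and 1639 in the depleted samples. Its controls thus lay on both sides of the depleted samples, and its log2 fold change of 0.15 ± 0.59 (SE) turned to -0.62 without control replicate 3. FDPS, which makes farnesyl diphosphate, the last shared precursor of sterols and other isoprenoids, had 2758, 2812 and 923.7 normalized counts in the controls and 1381, 967.1 and 1420 in the depleted samples, a difference of -0.64 ± 0.45 on the log2 scale (adjusted p = 0.503). PMVK, phosphomevalonate kinase, had the largest positive difference of the arm, 0.67 ± 0.53 on the log2 scale, from 231.8, 373.2 and 89.5 normalized counts in the controls to 416.5, 226.9 and 333.2 in the depleted samples. The groups of all 3 genes overlapped. The remaining mevalonate enzymes, mevalonate kinase (MVK), mevalonate diphosphate decarboxylase (MVD) and the isomerase IDI1, had log2 fold changes of -0.30, -0.09 and -0.25. Control replicate 3 was the lowest of the 6 samples in all 6 mevalonate genes.

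Squalene formation commits the pathway to sterols. FDFT1, squalene synthase, had 10394, 8499 and 2146 normalized counts in the controls and 4235, 3210 and 4872 in the depleted samples. SQLE, squalene epoxidase, had 3305, 3914 and 792.9 in the controls and 2074, 2632 and 2656 in the depleted samples. In both genes control replicate 3 was the lowest sample and the other controls the highest. LSS, which closes the sterol ring to give lanosterol, did not share the pattern. It had 1930, 1863 and 1708 normalized counts in the controls and 1962, 1668 and 2122 in the depleted samples, with a log2 fold change of 0.06 ± 0.25.

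Lanosterol is turned into cholesterol by demethylation, reduction and isomerization. MSMO1, the sterol C4-methyl oxidase, showed the widest spread among controls, with control replicate 3 at 13.6% of the mean of control replicates 1 and 2. In the depleted samples it had 2157, 1836 and 2323 normalized counts, a mean of 42.1% of that same control pair. DHCR7, which makes cholesterol from 7-dehydrocholesterol, had 2796, 1694 and 565.6 normalized counts in the controls and 973.0, 769.1 and 1008 in the depleted samples, with a log2 fold change of -0.61 ± 0.53 (adjusted p = 0.600). The lanosterol demethylase CYP51A1, the C4-decarboxylating dehydrogenase NSDHL and the desaturase SC5D had log2 fold changes of -0.53, -0.30 and -0.55. In CYP51A1 and NSDHL control replicate 3 was again the lowest sample, and in SC5D it was second to depleted replicate 1. TM7SF2, a sterol C14-reductase whose step can also be carried out by the lamin B receptor LBR, ran the other way in the controls, with 156.7, 150.6 and 240.0 normalized counts, and had 255.4, 131.8 and 174.4 in the depleted samples.

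INSIG1 holds SCAP in the endoplasmic reticulum and is itself a well known SREBP target. It had 3997, 1972 and 859.8 normalized counts in the controls and 1939, 1541 and 1804 in the depleted samples, with control replicate 3 lowest and a log2 fold change of -0.11 ± 0.51. STARD4, a carrier that moves cholesterol between membranes, was the only sterol arm gene whose groups did not overlap. It had 1188, 945.6 and 854.9 normalized counts in the controls and 683.7, 777.6 and 639.5 in the depleted samples, with a log2 fold change of -0.50 ± 0.27 that did not pass the test (adjusted p = 0.355).

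Leaving out control replicate 3 lowered the median log2 fold change of the sterol arm from -0.27 to -0.71 and gave 14 of 17 negative values, whereas the median was -0.03 without control replicate 1 and -0.04 without control replicate 2. Then 4 of 17 genes were called lower, namely DHCR7 (-1.26, adjusted p = 0.0327), FDFT1 (-1.22, adjusted p = 0.0333), MSMO1 (-1.22, adjusted p = 0.0316) and FDPS (-1.17, adjusted p = 0.0279), all by limma. IDI1 and NSDHL reached adjusted p-values of 0.0334 and 0.0483 with changes under 2-fold. Over all genes tested, 6.49% were called lower in that fit. With any other sample left out, 0 of 17 were called. The sterol arm result therefore rested on whether 1 control library was used, and the labels give no reason to leave that library out. Its values also ran higher in long transcripts, with a Spearman correlation across 13035 genes of 0.366 between its deviation from the gene mean and transcript length, beside -0.358 to 0.222 in the other samples. When transcript length and GC content were regressed out, control replicate 3 was the lowest sample in 13 of 17 sterol genes and in 20.9% of all genes corrected, and the median log2 fold change was -0.19.

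**Figure D2:**
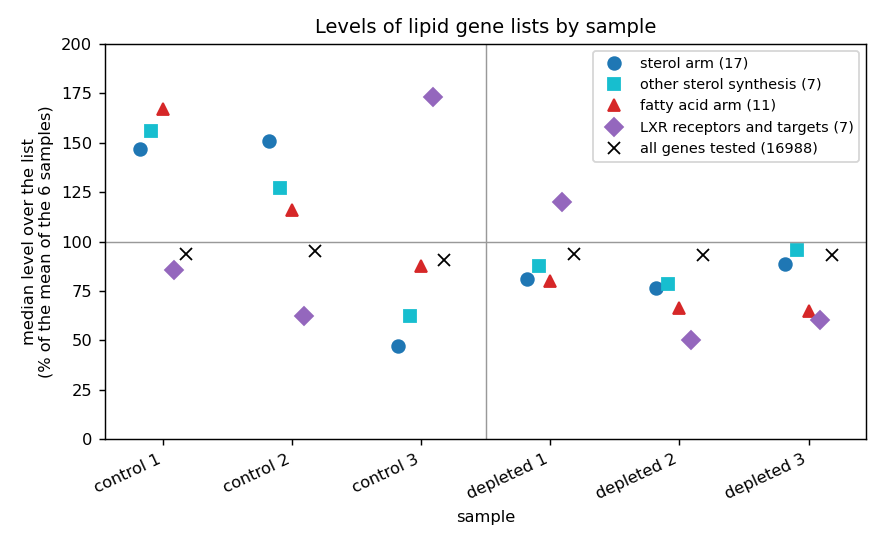
Each point is the median, over the genes of a list, of the level in a sample as a percentage of the gene's mean over the 6 samples. The sterol arm lies at 147%, 151% and 47.0% in the controls and at 76.3% to 88.5% in the depleted samples, the LXR list is highest in control replicate 3 at 173%, and all genes tested stay at 90.7% to 95.3%.

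The other sterol synthesis enzymes, 7 genes that are not among the 31, lay in the same order. None was called, and control replicate 3 was lowest in 6 of 7. ACAT2, which condenses acetyl-CoA at the start of the pathway, had 1391, 1683 and 176.1 in the controls and 961.1, 643.9 and 941.3 in the depleted samples. Some genes that LXRs are known to turn on when sterols accumulate ran the opposite way in control replicate 3. Of 7 LXR receptors and targets 0 were called by limma, and control replicate 3 was the highest sample in 4, as it was in 26.2% of all genes tested. DESeq2 called 2 of the 7 lower, ABCG1 (-3.10, adjusted p = 0.00820) and LPCAT3 (-1.13, adjusted p = 0.0257), beside 825 of all 16988 genes tested. ABCA1, which exports cholesterol, had 115.3, 28.1 and 2898 normalized counts in the controls and 1090, 345.5 and 389.1 in the depleted samples, and was called higher by limma without control replicate 3 (3.18, adjusted p = 0.0293). ABCG1, another sterol exporter, had 146.6, 66.8 and 1616 in the controls and 69.6, 83.9 and 62.6 in the depleted samples. MYLIP and LPCAT3, named after their values were seen, also had their highest value in control replicate 3. The cause of these differences among the controls was not tested.

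The sequences before the start of these genes are shown because most sterol arm genes shared this division of the controls. Of the 31 genes, 28 had an entry in the RefSeq promoter table (GRCh38.p14), and FASN, FDFT1 and SQLE had none and were not searched. The 250 bases before the RefSeq start were searched on both strands for TCACNCCAC, a core of the classical sterol regulatory element. They were also searched for CCAAT, which the cofactor NF-Y binds, for GGGCGG, which Sp1 binds, and for CACGTG, an E-box. Gene coordinates elsewhere are from Gencode, and the windows of HMGCS1, FDPS, MSMO1 and ACSL3 reach into the Gencode gene. A gene counted if any of its entries held the letters, and none of these motifs contains another. The CCAAT box stood in 13 of 15 sterol arm genes with an entry, in 6 of 10 fatty acid genes and in 1 of 3 core genes, beside 37.0% of the 27305 genes in the table. GGGCGG stood in 14 of 15, 9 of 10 and 3 of 3, beside 46.2%. CACGTG stood in 2 of 15, 1 of 10 and 1 of 3, beside 7.73%. The sterol regulatory element in this spelling stood in 1 member, SREBF2, beside 1.09% of all genes. Capitals mark TCACNCCAC and CCAAT on either strand, where CCAAT on the other strand reads ATTGG. SREBF2 (chr22:41832855-41833104, plus strand) holds the sterol regulatory element 133 to 125 bases before the start, with a CCAAT box after it. HMGCS1 (chr5:43313413-43313662, minus strand), FDPS (chr1:155308616-155308865, plus strand) and MSMO1 (chr4:165327419-165327668, plus strand), all low in control replicate 3, hold 2, 3 and 4 CCAAT boxes. The box did not separate these genes from the others, since all 4 sterol genes with an entry in which control replicate 3 was not the lowest sample (LSS, SC5D, STARD4 and TM7SF2) hold it and the 2 without it (CYP51A1 and PMVK) were lowest there. From the fatty acid arm, ACSL3 (chr2:222860786-222861035, plus strand) holds 1 and SCD (chr10:100346983-100347232, plus strand) holds 2. A match of letters is a description and does not show that a factor was bound in these cells.
SREBF2: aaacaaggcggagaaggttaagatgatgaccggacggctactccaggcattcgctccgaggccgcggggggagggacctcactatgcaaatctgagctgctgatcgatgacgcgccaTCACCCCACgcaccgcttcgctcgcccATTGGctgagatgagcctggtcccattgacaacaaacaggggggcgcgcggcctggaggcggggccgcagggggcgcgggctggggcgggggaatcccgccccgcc
HMGCS1: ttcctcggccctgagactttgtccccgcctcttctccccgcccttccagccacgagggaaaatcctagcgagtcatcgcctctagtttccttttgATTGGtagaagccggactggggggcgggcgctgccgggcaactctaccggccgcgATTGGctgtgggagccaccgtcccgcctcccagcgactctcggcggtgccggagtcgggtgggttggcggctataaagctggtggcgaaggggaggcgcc
FDPS: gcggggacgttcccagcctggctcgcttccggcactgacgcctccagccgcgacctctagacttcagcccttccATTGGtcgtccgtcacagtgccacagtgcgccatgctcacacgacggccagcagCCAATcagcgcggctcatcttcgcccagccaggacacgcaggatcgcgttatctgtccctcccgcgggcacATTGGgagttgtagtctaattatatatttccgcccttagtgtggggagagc
MSMO1: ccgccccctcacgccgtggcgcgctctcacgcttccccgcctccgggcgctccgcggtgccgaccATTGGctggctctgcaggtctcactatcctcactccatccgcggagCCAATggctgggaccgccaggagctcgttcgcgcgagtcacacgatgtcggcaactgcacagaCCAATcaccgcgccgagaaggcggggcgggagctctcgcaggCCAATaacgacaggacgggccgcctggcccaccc
ACSL3: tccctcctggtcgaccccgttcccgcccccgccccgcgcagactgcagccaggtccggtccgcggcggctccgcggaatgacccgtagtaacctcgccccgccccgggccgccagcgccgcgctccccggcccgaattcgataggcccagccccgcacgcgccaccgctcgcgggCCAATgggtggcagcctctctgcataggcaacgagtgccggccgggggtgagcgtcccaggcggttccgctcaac
SCD: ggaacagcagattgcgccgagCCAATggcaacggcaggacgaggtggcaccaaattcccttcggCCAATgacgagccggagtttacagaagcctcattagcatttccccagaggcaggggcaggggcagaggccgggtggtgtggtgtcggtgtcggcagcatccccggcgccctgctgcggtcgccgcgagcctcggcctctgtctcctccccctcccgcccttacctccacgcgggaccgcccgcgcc

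The SREBP core held 3 genes, of which 0 were called, 3 of 3 had negative log2 fold changes and the median was -0.57. SREBF1 (chr17:17810399-17837002, minus strand, hg38), which encodes SREBP-1, had the most negative difference of the 31 genes in the main fit with all 6 samples. FASN was lower without control replicate 3 (-1.92 against -1.16), without depleted replicate 2 (-1.71 against -1.60) and with the length and GC correction (-2.06 against -1.99). SREBF1 had 5133, 1510 and 10314 normalized counts in the controls and 2059, 960.5 and 986.0 in the depleted samples. Control replicate 2 lay below depleted replicate 1, so the groups overlapped, and control replicate 3, the lowest sample in most sterol genes, was the highest here. The log2 fold change of -1.78 ± 0.66 had an unadjusted p of 0.0249 and an adjusted p of 0.168 by limma. It was called without control replicate 2 (-2.54, adjusted p = 0.0298) and with DESeq2 (-2.09, adjusted p = 0.0128), and not with edgeR (adjusted p = 0.122). Without control replicate 3, its highest sample, the value was -1.16 (adjusted p = 0.208). SREBF2, which encodes SREBP-2, had 3187, 2193 and 2422 normalized counts in the controls and 2588, 1471 and 1536 in the depleted samples, with overlapping groups and a log2 fold change of -0.51 ± 0.32 (adjusted p = 0.439). SCAP had 1691, 1255 and 1506 in the controls and 1181, 847.8 and 983.8 in the depleted samples. The SCAP groups did not overlap, and its log2 fold change of -0.57 ± 0.27 had an adjusted p of 0.296. Of 5 other genes that process SREBP or its escorts, 0 were called, with the largest positive difference in INSIG2, a relative of INSIG1, at 0.53 ± 0.39.

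The fatty acid arm had 8 of 11 negative log2 fold changes, with a median of -0.79. Of the 11, 6 reached an unadjusted p under 0.05, beside 20.0% of all genes tested, and 1 was called lower, beside 1.97%. In 5 of 11, namely FASN, ACACA, ACSS2, ACSL3 and AACS, all depleted samples lay below all controls, beside 12.1% of all genes tested. As a median over the arm, the controls stood at 167%, 116% and 87.6% of the mean of the 6 samples and the depleted samples at 80.1%, 66.5% and 64.7%. Per kilobase of annotated exon, the control means were highest for SCD, at 2632 normalized counts per kilobase, FASN at 889 and ACLY at 872, and lowest for FADS2 at 28.6.

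FASN (ENSG00000169710.6, chr17:82078338-82098294, minus strand, hg38) encodes the enzyme that assembles palmitate from acetyl-CoA and malonyl-CoA. It had 11285, 7247 and 6335 normalized counts in the controls and 3332, 2286 and 1798 in the depleted samples. Every control was above every depleted sample, and control replicate 3 was the lowest control. The means were 8289 ± 2635 and 2472 ± 784 (SD, n = 3 each), and FASN fell by 1.75 on the log2 scale (SE 0.36, adjusted p = 0.0248 by limma), a 3.36-fold lower level. The call held with edgeR (adjusted p = 0.0382) and DESeq2 (adjusted p = 2.7e-04). It held without control replicate 3 (-1.92, adjusted p = 0.0160) and without depleted replicate 1 (-1.99, adjusted p = 0.0266). It was lost without control replicate 1 (-1.50, adjusted p = 0.0828), control replicate 2 (-1.82, adjusted p = 0.0613), depleted replicate 2 (-1.71, adjusted p = 0.114) or depleted replicate 3 (-1.54, adjusted p = 0.134). ACACA, acetyl-CoA carboxylase, which makes the malonyl-CoA that FASN uses, had 5914, 3599 and 5965 normalized counts in the controls and 3026, 2540 and 2542 in the depleted samples. Its groups did not overlap, and its log2 fold change of -0.90 ± 0.31 did not pass the test (adjusted p = 0.139).

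**Figure D3:**
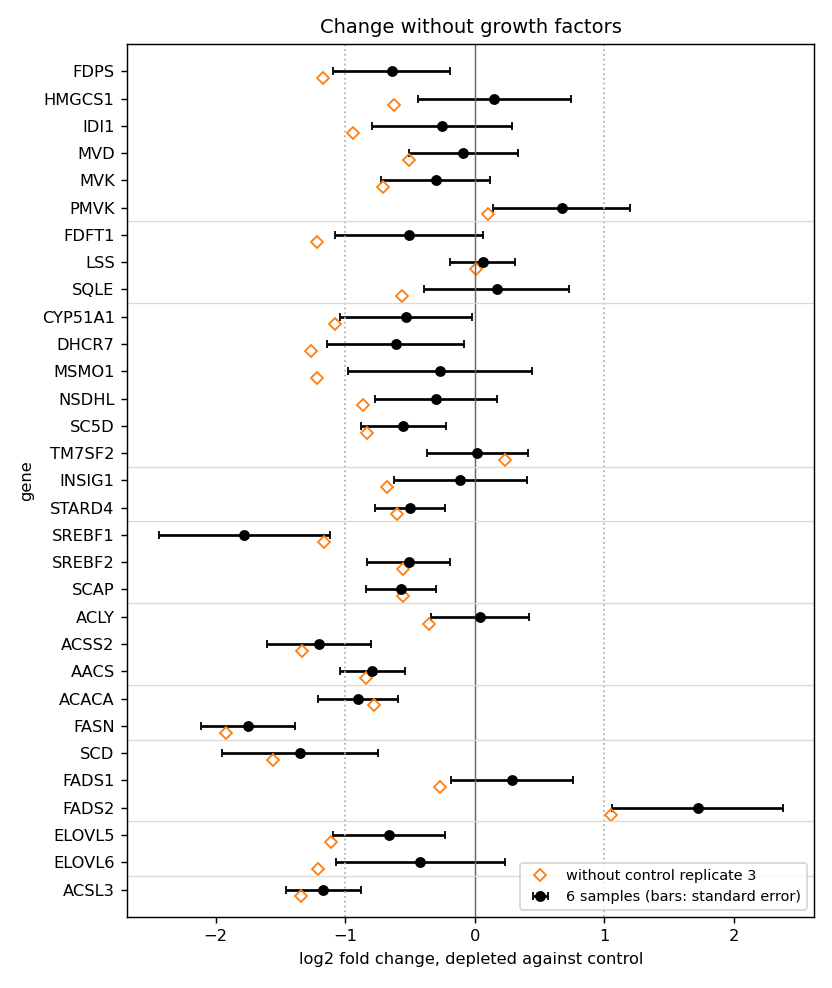
Log2 fold change of each of the 31 genes, depleted against control, with its standard error (black, 6 samples) and without control replicate 3 (orange diamonds). Dotted lines mark a 2-fold change. The diamonds lie left of the black points for most sterol genes, as for MSMO1 (-0.27 and -1.22), while FASN stays near its value (-1.75 and -1.92).

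Acetyl-CoA for the pathway comes from citrate, acetate or acetoacetate. ACLY, which cleaves citrate, had 5236, 5898 and 2493 normalized counts in the controls and 4512, 3714 and 4993 in the depleted samples, with a log2 fold change of 0.04 ± 0.38. Its controls were divided as in the sterol arm. ACSS2, which activates acetate, had 1089, 718.8 and 670.9 in the controls and 563.8, 215.7 and 353.3 in the depleted samples (-1.20 ± 0.40, adjusted p = 0.132). AACS, which activates acetoacetate, had 1672, 1312 and 1339 in the controls and 777.1, 829.4 and 881.0 in the depleted samples (-0.79 ± 0.25, adjusted p = 0.117). The groups of ACSS2 and AACS did not overlap, yet neither gene passed the test. ACSL3 (chr2:222860942-222944639, plus strand, hg38), which activates long-chain fatty acids and sits on the endoplasmic reticulum and lipid droplets, had 7613, 6485 and 4880 in the controls and 2436, 3026 and 2878 in the depleted samples. Its groups did not overlap either, and its log2 fold change of -1.17 ± 0.29 narrowly missed the threshold (adjusted p = 0.0544). ACSL3 was called without control replicate 3 (-1.34, adjusted p = 0.0155) and with DESeq2 (-1.17, adjusted p = 0.00340), and not with edgeR (adjusted p = 0.0683). With any other sample left out it was not called (adjusted p = 0.136 to 0.196 by limma). FASN and ACSL3, 2 of the 11 genes of the arm, were called lower without control replicate 3, beside 6.49% of all genes tested. The median of the arm was then -1.11, against -0.64 without control replicate 1 and -0.85 without control replicate 2. In the fits without control replicate 1 or 2, 0 of 11 were called lower, beside 156 and 175 of all 16988 genes tested.

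The desaturases and elongases were more mixed. SCD, the stearoyl-CoA desaturase that makes oleate, had 28330, 5186 and 7892 normalized counts in the controls and 5538, 3376 and 3721 in the depleted samples. Control replicate 1 was far above the others, control replicate 2 lay below depleted replicate 1, and the log2 fold change of -1.35 ± 0.60 did not pass the test (adjusted p = 0.252), though DESeq2 called it (adjusted p = 0.0422). It was -0.64 without control replicate 1 and -1.86 without control replicate 2, with no call in either fit. FADS2, the delta-6 desaturase that starts the synthesis of polyunsaturated fatty acids, had 654.2, 169.9 and 82.6 normalized counts in the controls and 636.1, 681.2 and 766.9 in the depleted samples. The depleted samples were close together and control replicate 1 lay among them. Its log2 fold change of 1.72 ± 0.66 had an adjusted p of 0.186, and among the fits on 5 samples it was called higher only without control replicate 1 (2.54, adjusted p = 0.0216). Without control replicate 3 the value was 1.05 (adjusted p = 0.216). FADS1, the delta-5 desaturase next to it, had 1624, 1281 and 442.7 in the controls and 1311, 996.6 and 1301 in the depleted samples, a difference of 0.29 ± 0.47. FADS1 and FADS2 lie on opposite strands and share 490 exon bases, so reads there cannot be told apart if strand was not used in counting. The elongases ELOVL5 and ELOVL6 had log2 fold changes of -0.66 ± 0.43 and -0.42 ± 0.65, and in both control replicate 3 was the lowest sample and the other controls the highest.

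Among lipid genes outside the 31, 76 were listed, 72 were measured and tested, and limma called 2 higher and 4 lower, beside 4.36% and 1.97% of all genes tested. SCD5, a second stearoyl-CoA desaturase, rose from 71.4, 31 and 37.4 normalized counts in the controls to 325.8, 641.2 and 793.8 in the depleted samples, with a log2 fold change of 3.62 ± 0.48 (adjusted p = 0.00420). SCD5 counts amounted to 0.252% to 0.599% of SCD counts in the controls and to 5.88% to 21.3% in the depleted samples, without division by length. Per kilobase of exon the SCD5 means were 11 normalized counts in the controls and 139 in the depleted samples, and those of SCD were 2632 and 803. The SCD5 call held with each sample left out (adjusted p at most 0.0307). Of the other 16 genes of fatty acid synthesis, elongation and desaturation limma called 0 with all 6 samples. Without control replicate 3 it called 4 lower, beside 6.49% of all genes tested (OXSM, HSD17B12, ME1 and MID1IP1, named after their values were seen). DESeq2 called 4 of the 16, namely HACD1 higher and OXSM, ELOVL3 and MID1IP1 lower. Over all 16988 genes tested DESeq2 called 1287 higher and 825 lower. The most negative difference was that of ELOVL3, at 86.5, 29.9 and 16.7 against 0.9, 7.2 and 11.2 (-2.66 ± 0.90, adjusted p = 0.137).

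**Figure D4:**
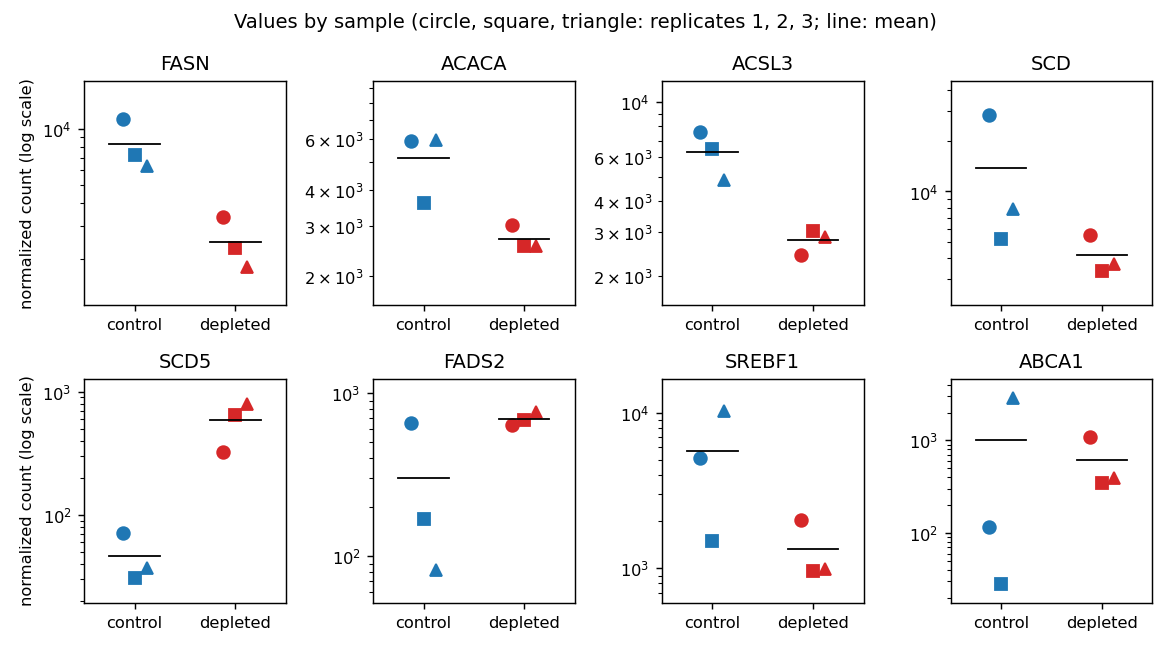
Normalized counts by sample on log axes, controls in blue and depleted samples in red, with the replicate number as the symbol and the mean as a line. FASN, ACACA and ACSL3 are lower and SCD5 is higher in every depleted sample than in any control, while in SCD, FADS2, SREBF1 and ABCA1 the groups overlap.

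The phosphatidate phosphatases, which make diacylglycerol for triglyceride and phospholipid synthesis, changed in opposite directions. LPIN1 fell from 6090, 4080 and 3183 normalized counts to 1229, 1531 and 1337 (-1.66 ± 0.31, adjusted p = 0.0184), and LPIN2 rose from 434.9, 369.1 and 320.7 to 1377, 1008 and 1131 (1.64 ± 0.28, adjusted p = 0.0109). Neither gene's groups overlapped. SCARB1, the receptor that takes up cholesteryl ester from high-density lipoprotein, fell from 1128, 1264 and 1411 to 482.4, 349.5 and 330.9 (-1.72 ± 0.28, adjusted p = 0.00917). In the same list VLDLR, a lipoprotein receptor, had the largest positive difference (2.15 ± 0.61, adjusted p = 0.0814). Of 12 genes of fatty acid oxidation 2 were called lower, beside 1.97% of all genes tested. They were ACADM, the medium-chain acyl-CoA dehydrogenase (-1.57 ± 0.35, adjusted p = 0.0334 by limma), and CPT2, a mitochondrial carnitine palmitoyltransferase (-1.55 ± 0.35, adjusted p = 0.0375 by limma). The extremes of that list were PDK4 at -1.61 ± 0.71 and CPT1A at 0.47 ± 0.69, neither called. The acyl-CoA synthetases outside the 31 ran from -1.69 ± 0.51 for ACSL5 to 0.69 ± 0.65 for SLC27A1. Of these 0 of 6 were called, beside 4.36% of all genes tested called higher and 1.97% called lower. Each of these calls held without control replicate 3. With 1 sample left out in turn the highest adjusted p was 0.0635 for LPIN2 (without depleted replicate 3), 0.0600 for SCARB1 (without depleted replicate 3), 0.0889 for LPIN1 (without depleted replicate 3), 0.150 for ACADM (without depleted replicate 3) and 0.154 for CPT2 (without depleted replicate 2). The call was lost without depleted replicate 3 in LPIN2, without depleted replicate 2 or 3 in SCARB1, without control replicate 1 or 2 or depleted replicate 2 or 3 in ACADM, and in every fit but that without control replicate 3 in LPIN1 and CPT2.

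Of the 31 genes, 11 share exon bases with another listed gene, at most 18.6% of their exon length, which was reached by FDPS and RUSC1-AS1 on the opposite strand. RUSC1-AS1 had a mean of 34.1 normalized counts against 1710 for FDPS. In some other pairs the partner had the higher mean. CYP51A1 (mean 160) shares 108 exon bases with AKAP9 (6157.7) on the opposite strand. On the same strand, TM7SF2 (185) shares 18 with VPS51 (986.2) and FADS2 (499) shares 49 with FEN1 (638.8). FDPS also has processed pseudogenes, and how reads that match several places were counted is not given in the sources used here.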

How the data were processed

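RNA from 6 MCF10A samples was depleted of ribosomal RNA, made into strand-specific libraries and sequenced as single-end reads. Per the labels and methods, the authors mapped reads to hg38 with TopHat2, counted them on Gencode v22 genes with HTSeq 0.6 and used DESeq2 1.8.1, with cutadapt 1.6 and R 3.2.0 also in the submitters' processing notes. What the authors deposited is a normalized signal for each gene, that is its count divided by the sample's size factor. Whole reads were recovered from them (100.0% of values within 0.02 of a whole read). Of 19198 genes, 18913 were named through Gencode v44, which also gave coordinates. The labels list 3 samples per group, while the design text gives 2 replicates. Nothing says that samples came from separate cultures, so p-values measure only the spread between these samples.

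Here, limma 3.58.1 (lmFit, eBayes with trend, R 4.3.3) compared 3 depleted with 3 control samples on log2(normalized count + 1), which understates changes of low genes, for 16988 genes with a mean of at least 10. Genes were called at p under 0.05 after Benjamini-Hochberg adjustment with a 2-fold change, and all tests were two-sided. edgeR 4.0.16 (TMM, quasi-likelihood) called 971 genes and DESeq2 1.42.0 called 2112 on the recovered reads. Standard errors and SDs measure the spread between these samples, and floors cover counting error only. The procedure was tested on simulated data. The 31 genes and all lists were chosen with earlier results of these data known. All 31 were named, with values by sample for those called, the 3 largest differences of each arm, INSIG1, the SREBP core and SCD. Other genes were named if called or if extreme in their list, except for some that are not reported here, and further values by sample were added after they were seen. Alternatives were pseudocounts of 0.5 and 10, no filter or a mean of 50, rescaling to the same total, quantile normalization, no trend, the replicate block, each sample left out, the count tests and other thresholds. A correction for length and GC content was added after seeing the data.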

Additional observations from a re-analysis of the deposited data

How the results depend on the processing

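The control and depleted samples share replicate numbers, but same-numbered samples did not deviate together (correlations of -0.073, -0.283 and -0.323, mean -0.226). The numbers were therefore not taken as pairs. Other pairs had a mean of 0.114, which is no separate comparison. Deviations from a group's mean cancel within the group, so that value largely follows from the mean of same-numbered pairs. With the replicate block 689 genes were higher and 278 lower, 0 of 17 sterol genes and 1 of 11 fatty acid genes were called, and FASN kept its call (adjusted p = 0.0353) while CPT2 lost it (0.0703). FASN was called in 15 of 21 alternatives, at -2.06 to -1.50. The 15 include looser thresholds on the main fit, which could not lose the call, and the ratio of group means, which has no p-value. Of 20 alternatives with an adjusted p, 14 had one under 0.05, the looser thresholds among them. The FASN call was also lost with no trend (0.0503) and with the length and GC correction (0.0532). ACSL3 was not called with the replicate block (0.181) or no trend (0.0917). It was called with quantile normalization (0.0451) and the same total (0.0409). Lower genes numbered 335, and 825 with DESeq2, 506 with the length and GC correction, 604 at an adjusted p under 0.1, 1925 by the ratio of group means, and 126 to 1102 with a sample left out. Higher genes numbered 741, and 1287, 479 with both correction and block, 2167 by the ratio, and 313 to 1372. Sterol genes called lower were 0 to 4 with a sample left out. Fatty acid genes called lower were 3 with DESeq2, 2 with the length and GC correction, quantile normalization, the same total or an adjusted p under 0.1, 0 with no trend, 4 by the ratio and 0 to 2 with a sample left out. Those called higher were 1 by the ratio and 0 to 1 with a sample left out. The median of the sterol arm was -0.71 to -0.03 and that of the fatty acid arm -1.11 to -0.64 with a sample left out. Related genes called lower were 10 with DESeq2, 2 with no trend, 16 by the ratio and 0 to 11 with a sample left out, and those called higher were 4 with DESeq2, 4 at an adjusted p under 0.1, 5 by the ratio and 1 to 3 with a sample left out. The cause was not tested.

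Of the 31 genes, 10 changed sign in some alternative, and none of them was called with all 6 samples. HMGCS1 went to -0.14 with DESeq2, -0.11 with edgeR and -0.17 by the ratio, SQLE to -0.10, -0.07 and -0.12, and ACLY to -0.02 with DESeq2 and -0.04 by the ratio. With the length and GC correction, with and without the block, ACLY went to -0.11, LSS to -0.14 and TM7SF2 to -0.08. Quantile normalization gave 0.02 for INSIG1 and -0.11 for TM7SF2. With a sample left out the log2 fold changes ranged from -0.62 to 0.62 for HMGCS1, -0.94 to 0.14 for IDI1, -0.68 to 0.43 for INSIG1, -0.02 to 0.16 for LSS, -1.22 to 0.36 for MSMO1, -0.51 to 0.27 for MVD, -0.56 to 0.59 for SQLE, -0.23 to 0.24 for TM7SF2, -0.35 to 0.28 for ACLY and -0.27 to 0.66 for FADS1.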
